A study of Mus musculus with 14 samples.

Results

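The clustered histone genes were taken as every row of the deposited count tables whose gene name starts with Hist1h, Hist2h, Hist3h or Hist4h. There were 70 such rows among 41053, namely 6 of linker histone H1, 20 of core histone H2A, 19 of H2B, 12 of H3 and 13 of H4. On the mouse genome build GRCm38, 56 of them lie on chromosome 13 (Hist1), 10 on chromosome 3 (Hist2), 3 on chromosome 11 (Hist3) and 1 on chromosome 6 (Hist4). Of the 70 rows, 62 had at least 1 count in some library.

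The 14 libraries of mouse C57BL/6 spleen cells fell into 4 groups. Germinal center (GC) B cells, the dividing B cells that mature their antibodies in lymphoid follicles, were labelled TET2 Knock-Out in 4 libraries (KO-labelled below) and TET2 Wild-Type in 3 libraries (WT). Lymphoma B cells were labelled TET2 Knock-Down in 2 libraries (shTet2-labelled, that is, with a short hairpin RNA against Tet2) and TET2 Wild-Type in 5 control libraries. The labels name no treatment, and the sources used here do not give the age of the mice, the deleted part of Tet2, the driver of the deletion, the purification of the cells or the origin of the lymphoma. The labels do not say whether the libraries of a group came from separate animals, so p-values measure only the spread between these libraries, which may be technical.

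Tet2, whose protein oxidises the methyl groups of DNA, ranged between 7.79 and 9.53 CPM (counts scaled to library size, per 1e6) in the 4 KO-labelled libraries and between 7.53 and 8.95 CPM in the 3 WT libraries. The groups overlapped, and edgeR's quasi-likelihood test gave a log2 fold change of 0.04 with an SE of 0.13 (adjusted p = 0.909). A count over the whole gene can miss the loss of a single exon, so this value does not check the KO label. In the lymphoma cells Tet2 had 79.4 and 86.0 CPM in the shTet2-labelled libraries, below the 89.0 to 105.4 CPM of the 5 control libraries, and the log2 fold change of -0.21 ± 0.10 (SE) did not pass the test (adjusted p = 0.295, edgeR). Both group names therefore stand on the labels.

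Total counts per library were 27191862 to 30434184 for the GC B cells and 6691167 to 18598386 for the lymphoma cells. A large share of the lymphoma counts lay in rows taken to hold ribosomal or other structural RNA, among them Rn7sk. This share was 34.5% and 19.8% in shTet2-labelled lymphoma, between 37.4% and 72.2% in control lymphoma, and between 0.271% and 1.06% in GC B cells. With mt-Rnr1, mt-Rnr2 and Mir6236 set aside too, control replicates 1 and 2 kept 2844935 and 1525769 counts, the fewest of the 14 libraries. The summed markers of germinal center and B cells stood between 2841 and 5999.84 CPM in all 14 libraries, and those of T cells, myeloid, erythroid and spermatogenic cells reached at most 26.8, 149.6, 13.1 and 1.58 CPM.

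Histones package DNA into chromatin. The core histones H2A, H2B, H3 and H4 form the spool of the nucleosome, and a linker histone H1 binds the DNA where it enters and leaves that spool. The clustered genes are transcribed mainly in S phase, when new DNA needs new nucleosomes, with NPAT as their coactivator. Most of their mRNAs lack introns and end in a short stem-loop in place of a poly(A) tail, and the stem-loop binding protein SLBP accompanies that end through processing, translation and decay. Libraries made by selection for poly(A) tails hold few such mRNAs. The extraction protocol names a stranded mRNA kit and the series' design text speaks of total RNA, so the values here are levels in these libraries.

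The stem-loop was found in the GENCODE vM21 transcripts of 46 of the 70 genes, against 55 of all 55341 gene names (0.0994%). It had 8 distinct sequences of 16 bases, the most frequent of which was carried by 26 of the genes. Those of 5 genes on which the results turn are shown, with the stem-loop in capitals and 5 flanking bases on each side, by GRCm38 coordinates. Hist1h1c was the most abundant linker gene of GC B cells, Hist1h2bm the H2B gene called in the shTet2 comparison, Hist1h3f among the largest increases in lymphoma, Hist1h4d the most abundant H4 gene of lymphoma cells and Hist1h4i the H4 gene that went the other way.
Hist1h1c, chr13:23739507-23739532, + strand: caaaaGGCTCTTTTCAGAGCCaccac
Hist1h2bm, chr13:21722501-21722526, + strand: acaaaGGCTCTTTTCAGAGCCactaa
Hist1h3f, chr13:23544927-23544952, + strand: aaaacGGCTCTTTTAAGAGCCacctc
Hist1h4d, chr13:23581945-23581970, + strand: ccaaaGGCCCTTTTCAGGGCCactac
Hist1h4i, chr13:22040961-22040986, - strand: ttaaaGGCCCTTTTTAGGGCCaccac
Hist1h1c and Hist1h2bm carried the most frequent of the 8 sequences, while both H4 genes had another stem. The counted row of Hist1h1c runs on for 840 bases past the stem-loop, that of Hist1h3f for 365 and that of Hist1h4i for 330, whereas that of Hist1h4d has 25 and that of Hist1h2bm ends before it. Among the 24 genes with no match were Hist1h1a, Hist1h1b, Hist1h2bc and Hist2h2be, which says only that the letters were not in the annotated transcript.

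Near-identical copies limit what single rows can say. Over the members above 0, the median gene shared 49.4% of its 50-base stretches with transcripts of another gene name. Hist1h1a, Hist1h1b, Hist1h1t and Hist2h2be shared none, Hist1h2bm shared 43.8% and Hist1h2ah 92.1%. The 8 rows at 0 in all 14 libraries were Hist2h2aa1, Hist2h2aa2, Hist2h3c1, Hist2h3b, Hist1h2bq, Hist1h2ao, Hist1h2ap and Hist1h2ba. In 4 of these 8, Hist2h2aa1, Hist2h2aa2, Hist2h3c1 and Hist2h3b, every stretch was shared and the whole row lay within bases of another row. A count of 0 in these 4 does not show that the gene was silent. Nor does it in Hist1h2bq, Hist1h2ao and Hist1h2ap, which shared 97.3%, 93.5% and 93.1% of their stretches. The H2A, H2B and H3 sums may therefore be incomplete. The lowest share among the 8 was 38.2%, for the testis gene Hist1h2ba. Exon bases were shared with another row by 9 members: Hist2h2ab, Hist2h2aa1, Hist2h2aa2, Hist2h3c1, Hist2h3b, Hist2h2bb, Hist3h2a, Hist1h2be and Hist1h4b. Reads of these members are uncertain, and the 708 bases that Hist3h2a shares with Trim17 on the same strand are the longest overlap among those with counts.

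In GC B cells the histone rows were low, and a single H4 gene and a single H1 gene led them. Per kilobase of row, Hist1h4i averaged 19.9 ± 1.94 CPM in KO-labelled cells and 16.2 ± 0.202 CPM in WT cells (SD, n = 4 and 3). Hist1h1c, the linker variant H1.2, averaged 10.98 ± 0.847 CPM per kilobase in KO-labelled cells and 9.89 ± 1.005 in WT cells. H2B genes came next, given here for those ranked 3 to 5 in WT cells. In KO-labelled cells Hist1h2bc ranked 8, below Hist1h2bj, Hist1h2bg and the linker gene Hist1h1a. Hist3h2ba averaged 5.83 ± 0.769 CPM per kilobase in KO-labelled and 3.93 ± 0.691 in WT cells, Hist1h2bb 3.99 ± 0.921 in KO-labelled and 3.72 ± 0.577 in WT cells, and Hist1h2bc 3.37 ± 0.405 in KO-labelled and 4.24 ± 1.19 in WT cells. These 3 did not separate from each other beyond their spread in WT cells, whereas Hist3h2ba lay apart from Hist1h2bc in KO-labelled cells. The mean stayed under 1 CPM for 56 of the 70 rows in KO-labelled cells and for 57 in WT cells.

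In lymphoma cells the order was another. Hist1h1e, the linker variant H1.4, came first with 149.8 ± 9.12 CPM per kilobase in shTet2-labelled cells and 159.1 ± 47.7 in control cells (SD, n = 2 and 5). Hist1h1a, the linker variant H1.1, was second in shTet2-labelled cells with 116.5 ± 20.2 CPM per kilobase and eighth in control cells with 35.5 ± 7.60. Hist1h4d followed with 106.8 ± 1.97 CPM per kilobase in shTet2-labelled cells and 90.7 ± 42.5 in control cells. Per kilobase, Hist1h1e lay above Hist1h1c in each of the 5 control libraries. Hist1h1c, at 108.3 ± 24.7 CPM per kilobase, and Hist1h4d did not separate beyond their spread there. The order of the linker genes rests on row length, 1560 bases for Hist1h1c, 840 of them past its stem-loop, and 748 for Hist1h1e. Before division by length Hist1h1c led, with 25.2% of the summed CPM of all members in control and 16.4% in shTet2-labelled cells. Hist1h1e held 17.3% in control and 12.6% in shTet2-labelled cells.

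One of the 4 leading genes of each core class, by mean CPM over the 14 libraries, shows how far the groups lay apart. For H2A, Hist2h2ac had 0.258 to 0.698 CPM in KO-labelled and 0.316 to 0.396 CPM in WT GC B cells, and 9.87 and 10.8 CPM in shTet2-labelled and 4.02 to 14.3 CPM in control lymphoma. For H2B, Hist1h2bb had 1.30 to 2.31 CPM in KO-labelled and 1.52 to 1.98 CPM in WT GC B cells, and 16.3 and 19.7 CPM in shTet2-labelled and 3.12 to 16.01 CPM in control lymphoma. In lymphoma the groups overlapped for Hist2h2ac and just failed to overlap for Hist1h2bb. For H3, Hist1h3b had 0.0456 to 0.451 CPM in KO-labelled and 0.101 to 0.629 CPM in WT GC B cells, and 8.58 and 16.6 CPM in shTet2-labelled and 1.46 to 7.83 CPM in control lymphoma. For H4, Hist2h4 had 0.730 to 1.11 CPM in KO-labelled and 0.759 to 1.03 CPM in WT GC B cells, and 31.9 and 37.5 CPM in shTet2-labelled and 15.2 to 35.9 CPM in control lymphoma. The groups of GC B cells overlapped for all 4 of these genes, and the lymphoma groups also for Hist2h4 but not for Hist1h3b. The H3 genes Hist1h3f and Hist1h3e, with more counts than Hist1h3b, did overlap in lymphoma. Their log2 fold changes of shTet2-labelled over control were 0.27 and 0.27, against 1.46 for Hist1h3b.

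The first comparison was of KO-labelled with WT GC B cells. The histone rows stayed near their WT levels: the sum over all 70 rows was 67.8 to 81.2 CPM in the 4 KO-labelled libraries and 58.7, 63.0 and 68.2 CPM in the 3 WT libraries. The ranges touched, and the ratio of the means was 1.16. Linker genes summed to 24.7 ± 2.53 CPM in KO-labelled and 21.4 ± 3.20 CPM in WT cells, and core genes to 48.7 ± 3.79 CPM in KO-labelled and 41.9 ± 2.48 CPM in WT cells (SD, n = 4 and 3). Core sums just failed to overlap, with 45.2 CPM in the lowest KO-labelled and 44.7 CPM in the highest WT library. Linker sums overlapped, as did the sums of H2A and of H3 genes.

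**Figure D1:**
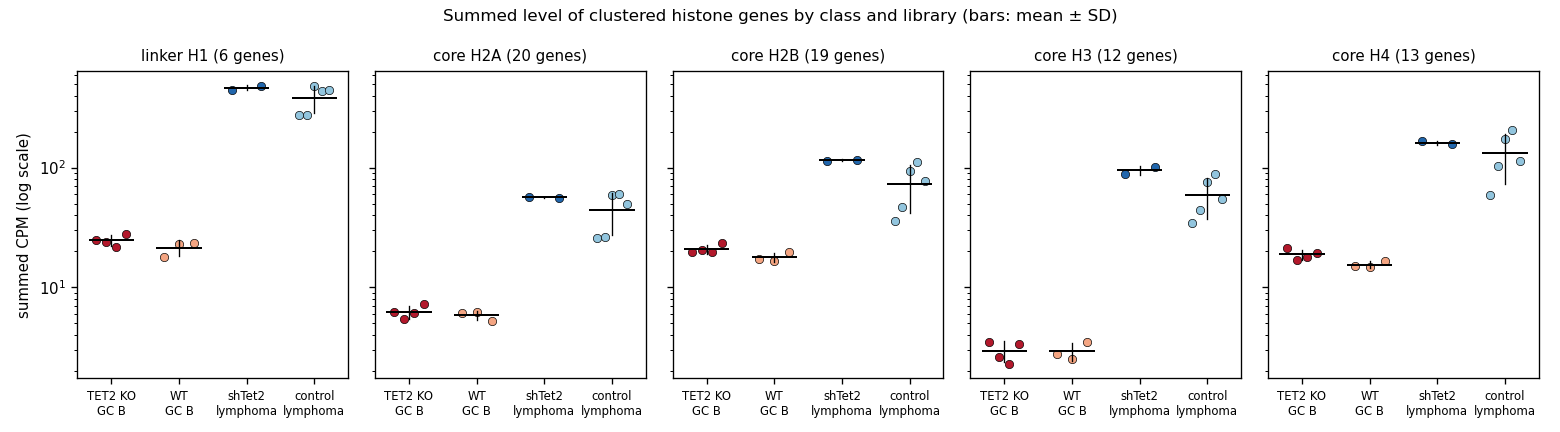
Summed CPM (log scale) of the linker H1, H2A, H2B, H3 and H4 genes in each library, with the groups along the horizontal axis; points are libraries, horizontal bars the group mean and vertical bars ± 1 SD. All 7 lymphoma libraries lie above all 7 GC B cell libraries in every class, and linker H1 sums lie between 274.2 and 483.9 CPM in control lymphoma and between 17.7 and 23.5 CPM in WT GC B cells.

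Of the 70 rows, 36 had enough counts to be tested in GC B cells, and none was called at an adjusted p under 0.05, against 6.49% of all 13600 genes tested, 1.92% higher and 4.57% lower (edgeR's quasi-likelihood test, Benjamini-Hochberg adjustment over all genes). At an unadjusted p under 0.05 there were 5, and all had positive fold changes. The share of all genes at that unadjusted p was not computed, so the 5 have no background beside them. DESeq2 and limma-voom called 0 too. The 36 fold changes were positive for 25 genes and had a median of 0.13 on the log2 scale, against 0.01 over all genes tested. The other 34 rows were too low for the filter.

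The smallest adjusted p was that of Hist1h2bg, an H2B gene. It had 1.92, 1.85, 1.48 and 1.85 CPM in KO-labelled libraries, all above the 1.12, 0.506 and 1.24 CPM of WT libraries. Its log2 fold change was 0.85 ± 0.29 (SE, adjusted p = 0.098, edgeR). Hist3h2ba had 3.24 to 4.28 CPM in KO-labelled and 2.07 to 2.89 CPM in WT libraries, and its log2 fold change of 0.52 ± 0.19 (SE) did not pass either (adjusted p = 0.123, edgeR). The groups of tested members did not overlap for 6 genes with KO-labelled libraries above. They also did not overlap for 1 gene with those libraries below, Hist1h3c, named after its value was seen. How many of all genes had groups apart was not computed, so these counts are not read as a trend of histone genes. Among linker genes, Hist1h1a had the largest value, 0.54 ± 0.33 (SE, log2 scale, adjusted p = 0.412, edgeR). Hist1h1e followed with 0.33, Hist1h1d with 0.22, Hist1h1c with 0.10 and Hist1h1b with 0.07, and all 5 overlapped between the groups. The testis variant Hist1h1t had 9 counts over the 4 KO-labelled libraries and 5 over the 3 WT libraries and was not tested.

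Among 10 histone genes outside the clusters that were tested, 2 fell. H1fx, the linker variant H1.10, had 20.9 to 27.3 CPM in KO-labelled and 35.5 to 40.5 CPM in WT libraries (log2 fold change -0.73 ± 0.10, SE, adjusted p = 0.000325, edgeR). H2afx, the H2A variant phosphorylated at DNA breaks, whose gene is known to give both stem-loop and polyadenylated mRNA, had 239.0 to 290.7 CPM in KO-labelled and 325.8 to 338.3 CPM in WT libraries (-0.37 ± 0.08, adjusted p = 0.0132, edgeR). Neither gene overlapped between the groups, and the median of the 10 was 0.03. None of 28 S-phase genes and none of 23 genes of histone mRNA transcription, processing and decay was called, with 3 of each at an unadjusted p under 0.05. Among 25 histone chaperone and deposition genes 1 rose, Cabin1, at 0.37 ± 0.09 (SE, adjusted p = 0.022, edgeR). Myeloid markers fell in 6 of 6 genes, with sums of 9.94 to 12.7 CPM in KO-labelled and 21.0 to 33.3 CPM in WT libraries. T-cell markers went the other way, with 1 of 4 called higher and sums of 2.34 to 2.67 CPM in KO-labelled and 0.873 to 1.92 CPM in WT libraries. The part of either in these differences was not tested.

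The second comparison was of shTet2-labelled with control lymphoma cells. Most histone rows were nominally higher in the shTet2-labelled libraries, and 2 of them passed the test. The sum over the 70 rows was 873.0 and 911.6 CPM in the shTet2-labelled libraries, against 429.1, 497.3, 886.2, 900.6 and 742.8 CPM in control replicates 1 to 5. The groups overlapped, since 2 control libraries reached the level of the shTet2-labelled ones, and the ratio of the means was 1.29. As a share of raw totals, structural RNA included, the rows held 0.0725% and 0.0925% in shTet2-labelled libraries and 0.0172% to 0.0555% in control libraries, without overlap, and the ratio of the sums was 2.06. Sums of H2B genes, at 113.5 and 116.4 CPM in shTet2-labelled libraries and 35.9 to 110.8 CPM in control libraries, did not overlap. Neither did sums of H3 genes, at 88.4 and 100.7 CPM in shTet2-labelled libraries and 34.2 to 87.8 CPM in control libraries, but the highest control library came within 1 CPM of the lower one. In both classes the lowest control library was replicate 1, which with replicate 2 was also the shallowest.

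Of 52 rows tested in the lymphoma cells, 2 were called higher and 0 lower, against 2.58% of all 12797 genes tested, 1.84% higher and 0.742% lower (edgeR's quasi-likelihood test). Fold changes were positive for 42 of the 52, with a median of 0.54 on the log2 scale against -0.0041 over all genes, and 18 genes, all higher, had an unadjusted p under 0.05. The median was 0.30 without control replicates 1 and 2. In 21 genes both shTet2-labelled libraries lay above all 5 control libraries, and in 0 genes below. The shares of all genes at that unadjusted p, or with groups apart, were not computed. The counts of 18 and 21 therefore have no background beside them and are not read as a result about histone genes. By class, the median log2 fold change was 0.48 for 5 linker genes, 0.41 for 12 H2A, 0.80 for 15 H2B, 1.04 for 9 H3 and 0.47 for 11 H4 genes, and all 9 H3 values were positive.

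Hist1h1a rose. It had 65.6 and 84.0 CPM in the shTet2-labelled libraries, against 21.5, 15.7, 22.1, 27.9 and 26.8 CPM in the control libraries. The lower shTet2-labelled library stood above the highest control library by more than the whole range of the control libraries, and the log2 fold change was 1.66 ± 0.16 (SE, adjusted p = 0.00212, edgeR). Its single-exon row lies at chr13:23763717-23764358 on the + strand of GRCm38 and had 1603 counts over the 2 shTet2-labelled and 811 over the 5 control libraries. In mouse tissues its product H1.1 is known as one of the somatic linker variants with a narrow pattern of expression, found in thymus, spleen and testis.

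Hist1h2bm, which encodes a core H2B protein, rose too. It had 9.97 and 12.8 CPM in the shTet2-labelled libraries, against 2.54, 2.56, 2.73, 5.48 and 4.27 CPM in the control libraries. The groups did not overlap, and the log2 fold change was 1.63 ± 0.28 (SE, adjusted p = 0.0134, edgeR). Its single-exon row lies at chr13:21722098-21722478 on the + strand and had 244 counts over the shTet2-labelled and 124 over the control libraries. Without control replicates 1 and 2 its adjusted p was 0.143 at a log2 fold change of 1.45, while Hist1h1a kept its call.

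**Figure D2:**
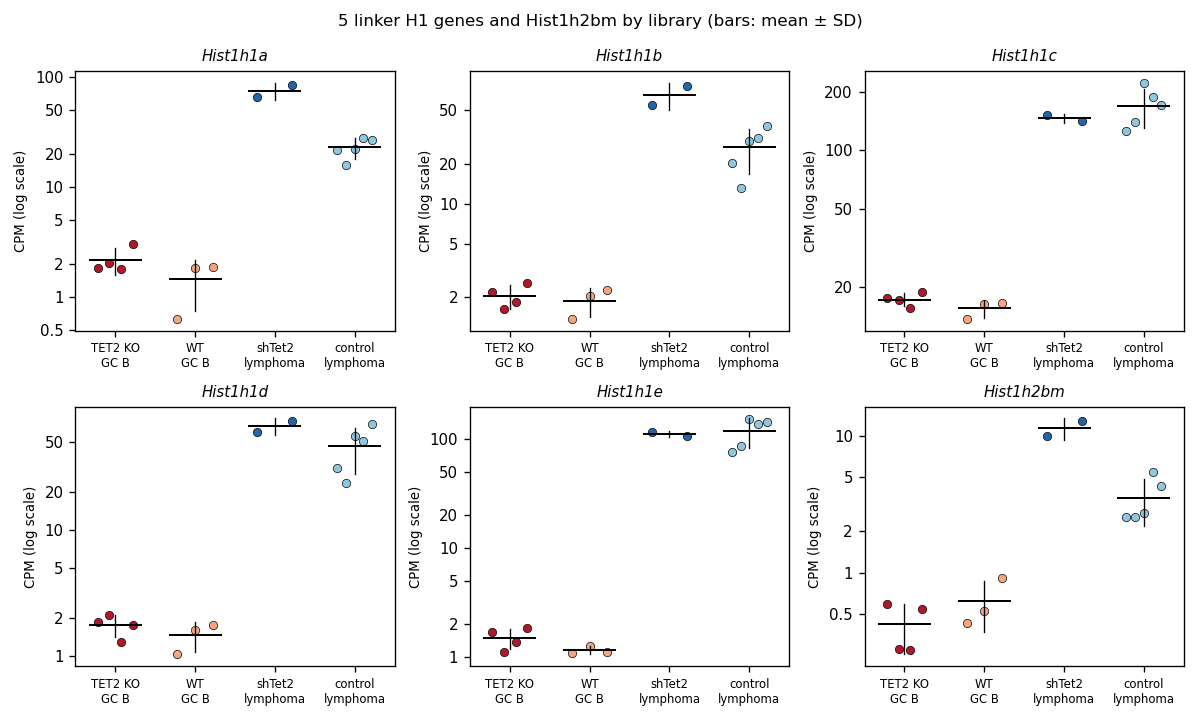
CPM (log scale, ticks labelled) of Hist1h1a, Hist1h1b, Hist1h1c, Hist1h1d, Hist1h1e and Hist1h2bm in each library, with the group mean and ± 1 SD. Hist1h1a and Hist1h2bm lie higher in both shTet2-labelled libraries than in every control library, whereas Hist1h1c and Hist1h1e overlap.

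The other linker genes did not move as one. Hist1h1b, the variant H1.5, had 55.1 and 75.9 CPM in shTet2-labelled libraries and 13.2 to 38.3 CPM in control libraries. The groups did not overlap, but the log2 fold change of 1.24 ± 0.32 (SE) did not pass (adjusted p = 0.106, edgeR). Hist1h1d, the variant H1.3, had 59.6 and 73.8 CPM in shTet2-labelled and 23.7 to 69.2 CPM in control libraries, a log2 fold change of 0.48 (adjusted p = 0.542, edgeR). Hist1h1c had 151 and 141 CPM in shTet2-labelled and 125 to 222 CPM in control libraries, at -0.23 (adjusted p = 0.552, edgeR). Hist1h1e had 117 and 107 CPM in shTet2-labelled and 75.9 to 154 CPM in control libraries, at -0.12 (adjusted p = 0.861, edgeR). Hist1h1t had 3 counts over the shTet2-labelled and 6 over the control libraries.

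The make-up of the linker level does not depend on how libraries are scaled to each other. Of the summed H1 level per kilobase, Hist1h1a held 20.1% and 23.1% in the shTet2-labelled libraries and 6.92% to 11.8% in the control libraries. Hist1h1b held 14.5% and 18.0% in shTet2-labelled and 6.37% to 10.6% in control libraries. Both shares were higher in each shTet2-labelled library than in each control library. Hist1h1c held 19.0% and 15.97% in shTet2-labelled and 22.5% to 32.2% in control libraries, and Hist1h1e 30.6% and 25.3% in shTet2-labelled and 35.7% to 41.4% in control libraries. These shares were lower without overlap, and that of Hist1h1d, at 15.7% and 17.5% in shTet2-labelled and 11.5% to 19.1% in control libraries, overlapped. Shares are given as a description, since Hist1h1a was singled out by the same contrast. In GC B cells the same shares overlapped between the groups for Hist1h1a, at 13.01% to 18.9% in KO-labelled and 6.81% to 14.4% in WT libraries, and Hist1h1c held 51.1 ± 2.2% in KO-labelled and 54.8 ± 5.1% in WT libraries (SD, n = 4 and 3).

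**Figure D3:**
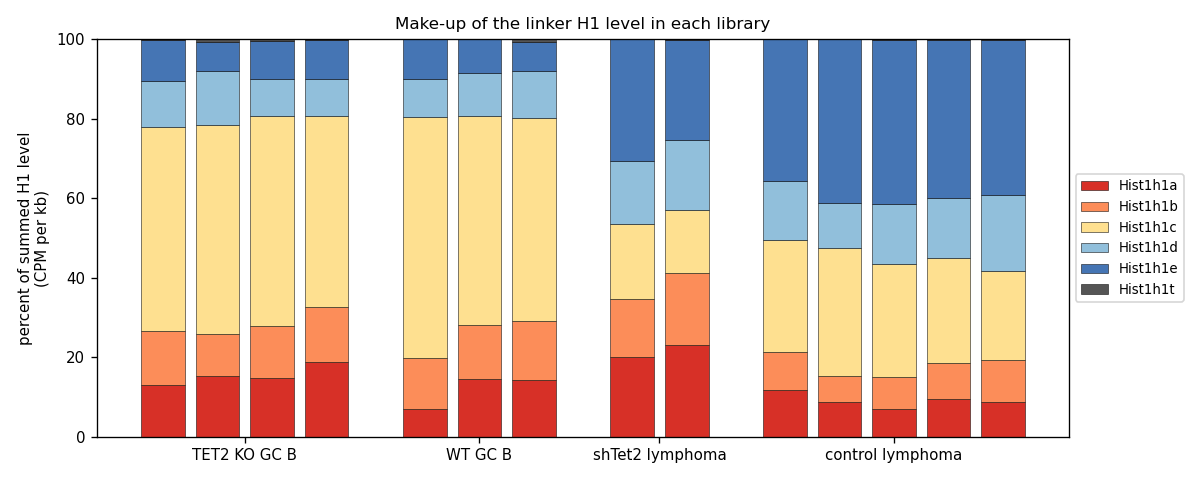
Percent of the summed linker H1 level (CPM per kilobase) held by each H1 gene in each of the 14 libraries, one bar per library. The Hist1h1c band is the widest in GC B cells, at 47.9% to 60.6%, the Hist1h1e band the widest in lymphoma cells, at 25.3% to 41.4%, and the Hist1h1a band is wider in both shTet2-labelled libraries than in every control library.

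RefSeq start regions of the called genes on GRCm38 are shown, since both rose. Each spans 250 bases before to 50 bases after the start, and capitals mark exact matches on either strand to the CCAAT box (CCAAT), the TATA box (TATAAA), the H1 box (AAACACA) and the octamer (ATTTGCAT), none of which overlap here.
Hist1h1a, chr13:23763418-23763717, + strand: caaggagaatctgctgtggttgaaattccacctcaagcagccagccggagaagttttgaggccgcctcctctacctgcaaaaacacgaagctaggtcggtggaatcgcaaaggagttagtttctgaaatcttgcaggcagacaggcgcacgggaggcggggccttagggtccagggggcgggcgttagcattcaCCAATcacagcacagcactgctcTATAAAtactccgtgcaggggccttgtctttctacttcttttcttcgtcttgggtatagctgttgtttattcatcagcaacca
Hist1h2bm, chr13:21721794-21722093, + strand: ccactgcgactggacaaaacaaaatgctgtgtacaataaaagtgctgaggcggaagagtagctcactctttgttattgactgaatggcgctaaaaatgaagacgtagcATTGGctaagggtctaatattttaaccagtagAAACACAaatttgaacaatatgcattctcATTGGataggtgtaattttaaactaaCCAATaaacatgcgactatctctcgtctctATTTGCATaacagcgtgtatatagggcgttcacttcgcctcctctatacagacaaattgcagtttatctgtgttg
Hist1h1a held 1 CCAAT box and 1 TATA box and Hist1h2bm 3 CCAAT boxes, 1 H1 box and 1 octamer, so the CCAAT box was the only one of the 4 motifs in both. Of the 61 members matched in the table, 85.2% held a CCAAT box, against 37.4% of all 32851 promoters. H4 stood apart, with 3 of 12 promoters (25.0%), while every matched promoter of the other classes held one. The octamer was held by 41.2% of H2A and 37.5% of H2B promoters, against 1.74% of all. These percentages are not independent, since start regions of some neighbouring H2A and H2B genes overlap. A single octamer was counted for both Hist1h2ah and Hist1h2bk, and another for both Hist1h2ae and Hist1h2bg. CCAAT boxes can be counted for both genes in the same way. The H1 box was held by 5 of 6 linker promoters (83.3%), against 7.18% of all, and Hist1h1a was the one without these letters. A match is a description of the letters and not of a bound site.

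Values that moved with the shTet2 comparison stand beside it. Of 28 S-phase genes 11 rose and 0 fell, with a median log2 fold change of 0.80. Among them Ccna2, the cyclin of S phase and G2, had 24.2 and 42.2 CPM in shTet2-labelled libraries and 6.05 to 12.3 CPM in control libraries (log2 fold change 1.84 ± 0.27, SE, adjusted p = 0.0111, edgeR). Pola1, the catalytic subunit of the DNA polymerase that starts new strands, had 45.0 and 49.0 CPM in shTet2-labelled and 23.7 to 29.2 CPM in control libraries (0.82 ± 0.11, adjusted p = 0.00502, edgeR). Of 25 histone chaperone and deposition genes 2 rose, Asf1b and Mms22l, with log2 fold changes of 1.32 and 0.71. None of 23 genes of histone mRNA transcription, processing and decay was called, with 6 at an unadjusted p under 0.05: Slbp was at 0.14 (adjusted p = 0.596, edgeR) and Npat at 0.07 (adjusted p = 0.753, edgeR). None of 10 histone genes tested outside the clusters was called, the smallest adjusted p being 0.106 for H3f3b at -0.40 (edgeR).

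The share of structural RNA was lower in both shTet2-labelled libraries, at 34.5% and 19.8%, than in all 5 control libraries, at 37.4% to 72.2%, without overlap. With its log2 value as a covariate, the log2 fold change of Hist1h1a was 1.28 (adjusted p = 0.469, edgeR) and that of Hist1h2bm was 1.42 (adjusted p = 1, edgeR), and 0 members were called. In bulk RNA, a larger share of cells in S phase and more histone RNA per cell cannot be told apart. T-cell markers gave 0 calls of 5 tested. Myeloid markers gave 0 calls of 6, with 2 at an unadjusted p under 0.05, but their sums were 44.6 and 149.6 CPM in the 2 shTet2-labelled libraries and 42.3 to 52.5 CPM in control libraries, so 1 of the shTet2-labelled libraries stood far above every control library. Plasma cell markers gave 2 higher of 5, with sums of 457.4 and 760.1 CPM in shTet2-labelled and 329.2 to 468.7 CPM in control libraries, and their part in the result was not tested.

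**Figure D4:**
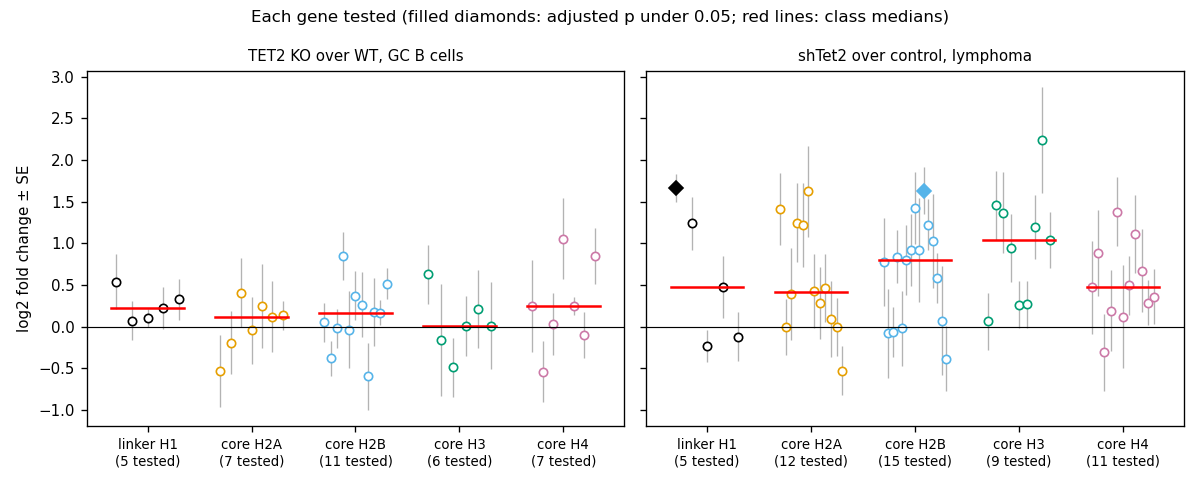
Log2 fold change ± SE of each member tested, KO-labelled over WT GC B cells on the left and shTet2-labelled over control lymphoma cells on the right, by histone class; filled diamonds passed an adjusted p of 0.05 and red lines are class medians. None of 36 is filled on the left and 2 of 52, Hist1h1a and Hist1h2bm, are filled on the right.

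The third comparison set the difference of shTet2-labelled against control lymphoma cells over that of KO-labelled against WT GC B cells. Of 52 members 2 were called higher and 0 lower, against 4.99% of all 15441 genes, 3.39% higher and 1.61% lower (edgeR's interaction term over all 14 libraries). By the same term 12 of 28 S-phase genes were called higher, with a median of 0.72 on the log2 scale, as were 3 of 7 myeloid, 2 of 5 plasma cell and 3 of 11 germinal center and B-cell markers, and their part in the result was not tested. Hist1h2bm had 0.591, 0.279, 0.274 and 0.545 CPM in KO-labelled and 0.426, 0.527 and 0.909 CPM in WT GC B cells, which overlapped. Its log2 fold change was 1.63 in the lymphoma comparison and -0.60 in the GC B cell comparison, and the difference was 2.19 ± 0.50 (SE, adjusted p = 0.0126, edgeR). Without shTet2-labelled replicate 2 it was 1.97 (adjusted p = 0.0766, edgeR). Hist1h2ah, an H2A gene, was near its detection limit, with 34 counts over the shTet2-labelled and 17 over the control lymphoma libraries, 8 over the KO-labelled and 20 over the WT GC B libraries. Its difference of 3.27 ± 0.91 (SE, adjusted p = 0.0424, edgeR) rests on these counts, and leaving out 1 library ended the call for 11 of the 14. The difference for Hist1h1a was 1.09 ± 0.43 (SE, adjusted p = 0.181, edgeR), so the comparisons were not shown to differ for it, and without WT replicate 1 it was 1.45 (adjusted p = 0.00936, edgeR). Of 36 members tested in both Tet2 comparisons, 20 had positive values in both, 4 negative values in both, 7 were negative in GC B cells and positive in lymphoma cells, and 5 the reverse.

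The last comparison, control lymphoma cells against WT GC B cells, compares libraries that differ in cell type and in count table. The structural RNA share, at 37.4% to 72.2% in control lymphoma and 0.271% to 1.06% in GC B cells, shows that they also differ in RNA content, although the labels give both tables the same mRNA kit. Whether RNA was selected alike for both tables was not tested, and it bears directly on mRNAs that mostly lack a poly(A) tail. Cell type, table and RNA selection cannot be told apart. Histone rows were far more abundant in the lymphoma libraries. The sum over the 70 rows was 691.2 ± 218.4 CPM in control lymphoma and 63.3 ± 4.77 CPM in WT GC B cells (SD, n = 5 and 3), a ratio of 10.9. Ratios were 20.3 for H3, 17.9 for linker H1, 8.53 for H4, 7.64 for H2A and 4.10 for H2B genes, and no class overlapped. Over raw totals, which include the structural RNA, the ratio of the sums was 3.98, over totals without structural rows 8.28, and with mt-Rnr1, mt-Rnr2 and Mir6236 removed as well 12.1.

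Of the 52 members tested, 48 were called higher and 3 lower, against 80.7% of all 15441 genes, 40.2% higher and 40.4% lower (edgeR). The median log2 fold change was 3.68, against -0.03 over all genes. Of the 48 called higher, 33 passed 8-fold, but the share of all genes past 8-fold was not computed, so that count has no background beside it. The 5 largest values did not separate within their SE, and their order changed between alternatives. Hist1h3f, an H3 gene, was among them, with 10.1, 16.8, 24.3, 24.1 and 15.9 CPM in control lymphoma and 0.142, 0.0633 and 0.186 CPM in WT GC B libraries (log2 fold change 7.11 ± 0.37, SE, adjusted p = 3.63e-12, edgeR). Hist1h4h, an H4 gene, had 4.88 to 32.6 CPM in control lymphoma and 0.101 to 0.148 CPM in WT GC B libraries, a log2 fold change of 7.05 ± 0.62 (SE). Hist1h1e, the leading linker gene of lymphoma cells per kilobase, had 75.9 to 154 CPM in control lymphoma and 1.08 to 1.26 CPM in WT GC B libraries, at 6.70 ± 0.30 (SE). The groups stood apart by far more than their spread in all 3 genes.

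An H2A and an H2B gene among the largest increases rested on few counts in GC B cells. Hist1h2bn had 95 counts over the control lymphoma and 3 over the WT GC B libraries, a ratio of scaled counts of 130.0 with a 95% counting interval of 43.2 to 641.6. Hist1h2ai had 189 counts over the control lymphoma and 7 over the WT GC B libraries, a ratio of 110.9 (52.8 to 279.5). These intervals cover counting error only. Hist1h3e completed the 6 largest at 5.87 ± 0.32 (SE, log2 scale). All 5 linker genes tested rose, Hist1h1d by 5.02, Hist1h1a by 4.02, Hist1h1b by 3.85 and Hist1h1c by 3.46 on the log2 scale, with Hist1h1e above.

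**Figure D5:**
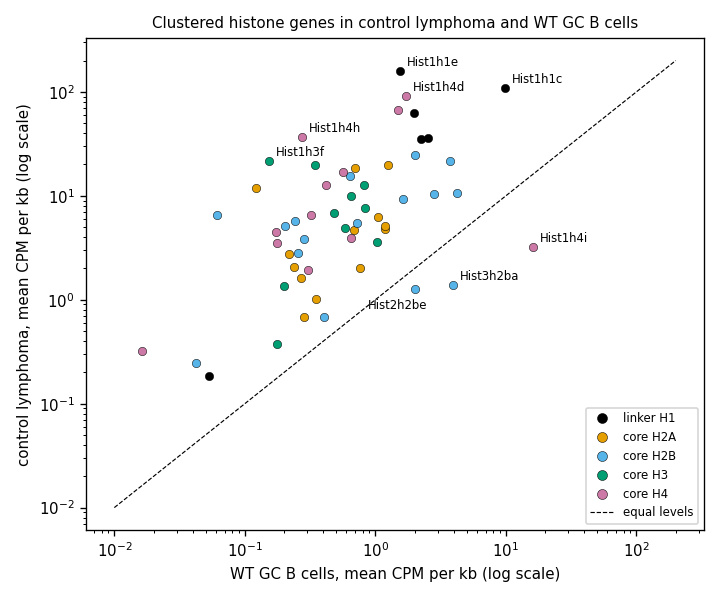
Mean CPM per kilobase in control lymphoma (vertical) against WT GC B cells (horizontal), both on log scales, for the 57 genes above 0 in both groups, coloured by class; the dashed line marks equal levels. Of these, 54 lie above the line, and Hist1h4i, Hist3h2ba and Hist2h2be lie below it.

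The 3 genes called lower came from the H4 and H2B classes. Hist1h4i had 1.56, 1.10, 3.28, 3.13 and 2.54 CPM in control lymphoma and 11.8, 11.6 and 11.9 CPM in WT GC B libraries, without overlap (log2 fold change -2.20 ± 0.19, SE, adjusted p = 1.37e-09, edgeR). It held 1.39 ± 0.5% of the summed H4 level per kilobase in control lymphoma and 73.0 ± 5.8% in WT GC B cells (SD, n = 5 and 3), while Hist1h4d held 36.7 ± 3.3% in control lymphoma and 7.52 ± 3.2% in WT GC B cells. Hist3h2ba had 0 to 1.36 CPM in control lymphoma and 2.07 to 2.89 CPM in WT GC B libraries (-1.36 ± 0.37, adjusted p = 0.00239, edgeR). Hist2h2be, an H2B gene known in human cells to give polyadenylated mRNA when division stops, had 2.19 to 5.09 CPM in control lymphoma and 5.02 to 5.62 CPM in WT GC B libraries, at -0.59 ± 0.21 (SE, adjusted p = 0.0136, edgeR). Its groups overlapped, and its call was lost with upper-quartile scaling, at -0.18, and without WT replicate 4, at -0.51 (adjusted p = 0.0511, edgeR).

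The linker pool differed in make-up as well as in level. Hist1h1c held 27.6 ± 3.6% of the H1 level per kilobase in control lymphoma and 54.8 ± 5.1% in WT GC B cells, and Hist1h1e held 39.5 ± 2.3% in control lymphoma and 8.60 ± 1.3% in WT GC B cells (SD, n = 5 and 3). Members with the stem-loop had a median log2 fold change of 3.49 (36 tested) and those without a match one of 3.83 (16 tested). A missing match says only that the letters were not in the annotated transcript, so the part of the mRNA end was not tested. Members whose counted row runs at least 100 bases past the stem-loop had a median of 3.91 (10 tested) and those with a shorter end one of 3.47 (22 tested).

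Most genes listed for histone synthesis and S phase fell in the same comparison, with Npat among the exceptions. Of 24 genes of histone mRNA transcription, processing and decay 4 rose and 18 fell, with a median log2 fold change of -0.93. All 28 S-phase genes fell in control lymphoma, with a median log2 fold change of -3.22, and their summed level was 525.4 to 694.6 CPM in control lymphoma and 4624 to 5201 CPM in WT GC B libraries. Slbp had 29.2 to 38.7 CPM in control lymphoma and 139.0 to 163.2 CPM in WT GC B libraries, and fell by 2.24 on the log2 scale (adjusted p = 3.78e-14, edgeR). Npat had 40.3 to 45.7 CPM in control lymphoma and 26.5 to 29.5 CPM in WT GC B libraries, and rose by 0.60 on the log2 scale (adjusted p = 2.94e-06, edgeR). Of 11 histone genes outside the clusters 2 rose and 9 fell, with a median of -1.05, and of 25 chaperone genes 2 rose and 20 fell, with a median of -1.57. Rn7sk, a structural RNA with no poly(A) tail, averaged 15181 ± 2369 CPM in control lymphoma and 3.79 ± 3.05 CPM in WT GC B cells (SD, n = 5 and 3). With the structural RNA share as covariate 1 member was called higher, but that share separates the 2 tables, so it and the cell type cannot be told apart. T-cell markers were higher in 6 of 6 genes tested, with sums of 6.24 to 26.8 CPM in control lymphoma and 0.873 to 1.92 CPM in WT GC B libraries, and germinal center and B-cell markers lower in 9 of 11; their part was not tested.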

How the data were processed

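The submitters' processing notes name STAR 2.3.0e and the build GRCm38.p3. Deposited values were raw counts, which the authors made per gene name with featureCounts 1.5.1 over GENCODE vM3 exons, per the file headers, in 2 tables of 7 libraries, with no strand, paired-end or multi-mapping option on the command line. Without strand, a row and an antisense partner cannot be told apart. Libraries were mapped to groups by title.

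Counts were filtered by filterByExpr, scaled by TMM and tested with edgeR 4.0.16 (robust quasi-likelihood), with adjusted p under 0.05 over all genes as the call. The Tet2 comparisons used their own table, and the difference and the comparison across tables all 14 libraries. CPM are TMM-scaled over all 14, and levels per kilobase were divided by the deposited row length. SE is the log2 fold change over the square root of F. Named genes were the linker genes, the leading 4 genes of each core class, the 6 largest changes per direction, genes called in both Tet2 comparisons or in their difference, rows at 0 and rows that share exons; of each other list, up to 4 called genes by smallest p (the first 2 where none was called), with Slbp, Npat and Tet2. The members and lists were chosen with earlier results of these data known. Alternatives were DESeq2 1.42.0, limma-voom 3.58.1, other scalings and filters, a covariate, a block and leaving out each library. Code was tested on simulated data. Of 70 names, 61 matched a RefSeq promoter through synonyms.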

Additional observations from a re-analysis of the deposited data

Results flagged for a closer look

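Of 70 groups of 4 or 5 libraries examined for a library far from the others, 1 stood out, where chance alone gives about 1 in 20. Hist1h2be had 1.27 CPM in KO-labelled replicate 5, against 1.09 to 1.12 CPM in the other KO-labelled libraries.

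The Tet2 comparison differed between lymphoma and GC B cells for 2 of 52 members by the interaction term, both higher, against 3.39% of all 15441 genes called higher. The difference was 2.19 on the log2 scale for Hist1h2bm and 3.27 for Hist1h2ah. Without 1 library it was 1.82 to 2.42 for Hist1h2bm and 2.57 to 3.70 for Hist1h2ah. Hist1h2ah had only 79 counts over all 14 libraries, and its call ended in most fits without 1 library.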

How the results depend on the processing

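The alternatives had been listed with earlier results known, and removing the wider structural rows, changing totals to match and leaving out control replicates 1 and 2 together were added after seeing the data. In KO-labelled against WT GC B cells, testing without a filter called 1 member higher, Hist1h2bg, and the other alternatives called 0, leaving out any 1 library included (0 to 0). In shTet2-labelled against control lymphoma cells, the count of 2 higher was 5 with DESeq2, 4 with limma-voom, 9 without a filter, 4 in 1 model of all libraries, 0 with the structural RNA share as covariate and 1 without control replicates 1 and 2. Leaving out 1 library gave 2 to 6 higher, 6 without shTet2-labelled replicate 1 and 5 without control replicate 4, and 0 to 1 lower. For the difference between the comparisons, the count of 2 higher was 1 with the covariate and 1 without control replicates 1 and 2. It was 0 to 3 higher and 0 to 1 lower without 1 library, 0 without shTet2-labelled replicate 2. For control lymphoma against WT GC B cells, the counts were 1 higher and 0 lower with the covariate, whose values separate the 2 tables, and 46 to 50 higher and 2 to 3 lower without 1 library. Over raw totals the ratio of histone sums was 2.06 for shTet2-labelled over control and 3.98 for control lymphoma over WT. The cause of these changes was not tested.

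Replicate numbers were shared by 2 pairs in each table, and these same-numbered libraries had correlations of deviations of 0.05, -0.06, -0.10 and -0.01. Differently numbered pairs were not computed for comparison, so whether the numbers pair the libraries was not settled. With a replicate block, the median log2 fold change of the members was -0.059 in KO-labelled against WT cells, 1.73 in shTet2-labelled against control cells and 1.55 for the difference. The block called 0 members in either Tet2 comparison, 4 higher in their difference, and 30 higher and 1 lower in control lymphoma against WT. In KO-labelled against WT cells the block reversed Hist1h1a (-0.0058), Hist1h1b (-0.36), Hist1h1c (-0.061) and Hist1h1d (-0.058), and in the lymphoma comparison Hist1h1c (0.11) and Hist1h1e (0.45). Hist1h1e also reversed with the covariate (0.027), as did Hist1h1b in GC B cells (-0.040). Without 1 library Hist1h1b in GC B cells was between -0.11 and 0.22, and it reversed without KO-labelled replicate 5 (-0.058) or WT replicate 1.

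Too few counts left 34 of 70 members untested among GC B libraries, which are the deeper ones, and 18 among lymphoma libraries.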
